A study of Mus musculus with 14 samples.

Results

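Cdkn1a, 6 other genes that the transcription factor p53 is known to switch on (Aen, Mdm2, Ccng1, Bax, Bbc3 and Phlda3) and the 3 Gadd45 genes (Gadd45a, Gadd45b and Gadd45g) were followed in mouse cerebral cortex after cerebral venous sinus thrombosis (CVST), in which a clot blocks the venous channels that carry blood out of the brain. The 10 genes were found by symbol among 55894 entries of the deposited count table, and all 10 were among the 16918 genes with enough reads to be tested. Bulk RNA-seq of tissue from the cortex of both sides was available for 4 sham samples, 5 samples taken 2 days after CVST and 5 samples taken 7 days after it. No genotype other than mouse is labelled, and the labels leave out strain, sex, age, the way the clot was made and the day on which sham cortex was taken. The samples are numbered within groups, and nothing states that each came from a separate animal, so p-values measure the spread between these samples.

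The p53 protein is a transcription factor that accumulates when cells meet DNA damage and other stresses. It binds DNA at pairs of a short decamer and raises genes that stop the cell cycle, repair DNA or start programmed cell death, and it also raises Mdm2, the ligase that marks p53 for breakdown. Cdkn1a encodes p21, an inhibitor of the cyclin-dependent kinases (CDKs) that drive cell division. The Gadd45 proteins are small stress sensors that bind p21, PCNA and the kinase Map3k4, and in neurons Gadd45b is also known as a gene raised by activity.

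Sequencing depth was 14.7 to 20.8 M counts per sample, with similar ranges in all groups. As a check of the labelled tissue, Slc17a7, the vesicular glutamate transporter of cortical excitatory neurons, had a mean of 1176 CPM (counts scaled by library size) in sham, 1332 CPM at 2 days and 1180 CPM at 7 days. The 6 interneuron markers (Gad1, Gad2, Slc32a1, Pvalb, Sst and Vip) summed to between 612 and 1024 CPM in every sample. CVST 2 d sample 5 and CVST 7 d sample 2 lay at -26.7 and -26.9 on the first principal component of all tested genes. Beside them lay sham sample 1 (-27.3), while the other sham samples lay from -48.2 to -47.7. The remaining CVST samples lay from 1.48 to 49.1, so results are also given without the 2 CVST samples near sham sample 1 where that matters. The choroid plexus and striatum marker sums varied widely within groups, from 6.70 to 863 CPM and from 153 to 1086 CPM, so the pieces of tissue were not identical.

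Levels can be compared between genes only per length, as the deposited FPKM (fragments scaled by transcript length and library size). In sham cortex Bax was the highest at 38.0 ± 4.4 FPKM (SD, n = 4), followed by Ccng1 at 25.2 ± 3.14. Mdm2 (14.6 ± 1.28), Phlda3 (13.1 ± 3.06), Gadd45b (12.1 ± 2.55), Aen (11.2 ± 0.799), Cdkn1a (10.4 ± 1.26), Gadd45g (9.16 ± 1.59) and Gadd45a (8.48 ± 2.63) followed, and each differed from its neighbour in this order by less than the larger of the SDs of the pair. Bbc3 was the lowest at 3.46 ± 1.36 FPKM. At 2 days Cdkn1a stood the second in this order at 30.4 ± 9.99 FPKM (SD, n = 5) and Gadd45b the third at 28.8 ± 20.4. At 7 days they held the sixth and the seventh place, with 9.65 ± 3.18 and 9.36 ± 2.58 FPKM (SD, n = 5).

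**Figure D1:**
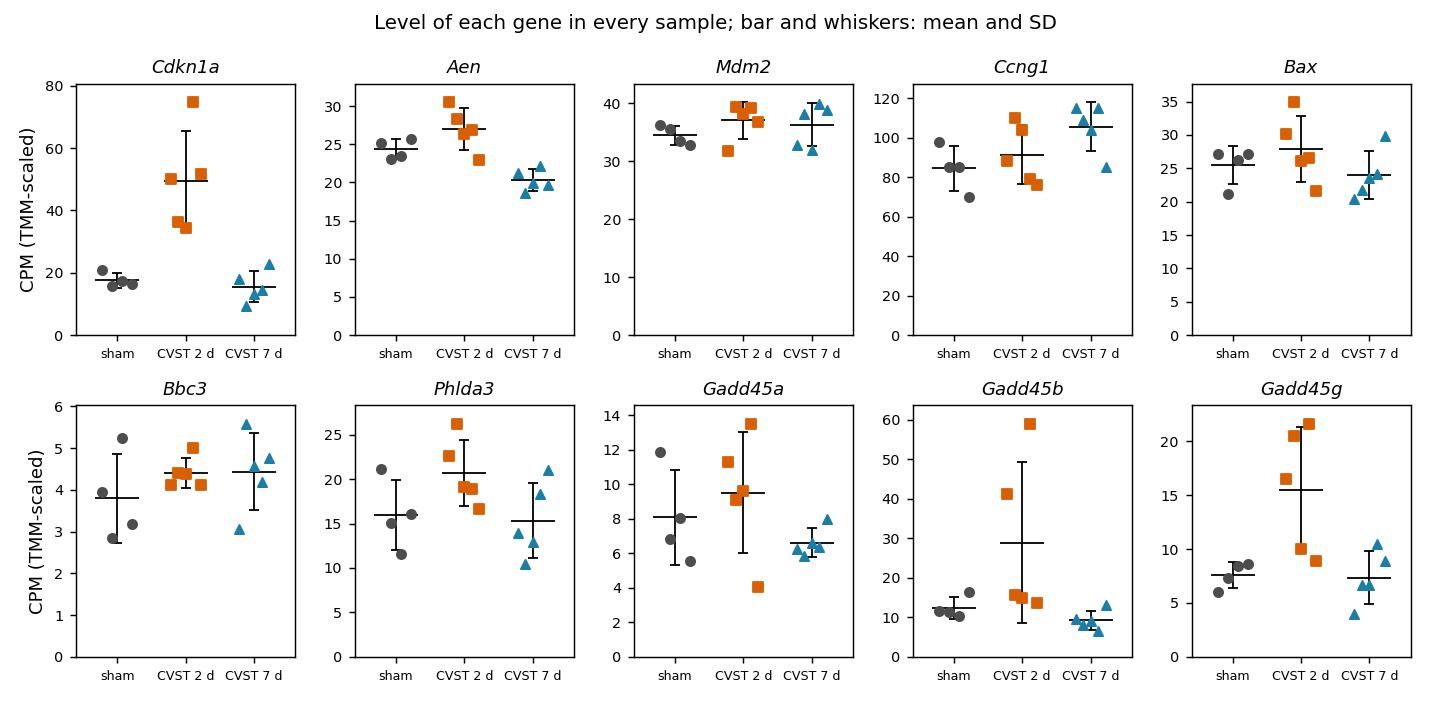
Level of each of the 10 genes in every sample, in CPM scaled by the trimmed mean of M values (TMM); points are samples, the bar is the group mean and the whiskers are the SD, with 4 sham samples and 5 in each CVST group, and every axis starts at 0. The 5 Cdkn1a values at 2 days (34.3 to 74.7 CPM) lie above all sham and 7 d values, while Mdm2, Bax and Bbc3 overlap in all groups.

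Cdkn1a rose at 2 days and fell again by 7 days, when its mean did not pass the test against sham. Its level was 20.9, 15.6, 17.3 and 16.3 CPM in the 4 sham samples, and 50.2, 36.3, 34.3, 74.7 and 51.7 CPM in the 5 samples at 2 days. The lowest of the 2 d samples was above the highest sham sample, and the 2 d samples themselves spread 2.18-fold. At 7 days the values were 18, 9.44, 13.3, 14.5 and 22.7 CPM, which overlap the sham values, with 3 below and 1 above all of them, and all lie below the 2 d values. The group means were 17.5 ± 2.34 CPM in sham (SD, n = 4), 49.4 ± 16.2 at 2 days and 15.6 ± 5.0 at 7 days (SD, n = 5 each).

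The difference between 2 days and sham was 1.5 ± 0.25 on the log2 scale (SE), or 2.82-fold, with an adjusted p of 0.00918 in edgeR's quasi-likelihood test (Benjamini-Hochberg over all genes tested). A 2-sided exact permutation test of the same values gave 0.00794, the smallest p that 4 against 5 samples allow. Between 7 and 2 days Cdkn1a fell by 1.67 ± 0.23 (edgeR, adjusted p = 0.0051). At 7 days against sham the difference was -0.17 ± 0.25 (edgeR, adjusted p = 0.753). The rise at 2 days was called in all 9 fits that left out 1 sample, with log2 differences from 1.30 to 1.61, and the later fall in all 10 such fits, from -1.84 to -1.47. Across these fits and 10 other settings, edgeR, limma and DESeq2 gave adjusted p from 6.23e-07 to 0.0463 for the rise and from 2.98e-09 to 0.0251 for the fall.

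Markers of dividing cells (Mki67, Top2a, Cdk1, Plk1, Tpx2 and Birc5) also rose at 2 days, 6 of 6, beside 2.98% of all genes. Their summed level was 6.18 to 7.59 CPM in sham, 7.01 to 85.4 at 2 days and 14 to 74.4 at 7 days. CVST 2 d sample 5 had the lowest of these sums at 2 days, 7.01 CPM, inside the sham range, while its Cdkn1a was 51.7 CPM, the second highest of all samples. CVST 7 d sample 5 had a sum of 74.4 CPM with Cdkn1a at 22.7. Without CVST 2 d sample 5 and CVST 7 d sample 2 the rise of Cdkn1a was 1.49 (edgeR, adjusted p = 0.00236).

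Markers of other cell types moved as well. At 2 days 2 of 7 monocyte and macrophage markers (Msr1 and Arg1), 3 of 6 astrocyte markers (Gfap, Vim and Aldh1l1) and 2 of 6 endothelial markers (Pecam1 and Cdh5) rose. Over all genes 2.98% passed as higher. The calls of these markers, and of the dividing cell markers other than Cdk1, were not followed with samples left out. Other markers of the same lists were lower at 2 days at an unadjusted p under 0.05 without passing, the astrocyte genes Slc1a3 (-0.32 on the log2 scale, edgeR adjusted p = 0.211) and Gja1 (-0.48, 0.135) and the endothelial Slco1a4 (-0.38, 0.206). The summed microglial markers ran from 249 to 556 CPM, against 256 to 293 in sham. The summed macrophage markers were 10.9 to 13.8 CPM in sham, 29.7 to 220 at 2 days and 19.4 to 1860 at 7 days, when Cdkn1a was at 9.44 to 22.7 CPM. The summed astrocyte markers were 967 to 1125, 1453 to 2937 and 1758 to 4193 CPM in the same order.

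Hemoglobin genes of red cells (Hba-a1, Hba-a2, Hbb-bs and Hbb-bt, near-identical copies among which reads may be split) had their highest group means at 2 days, as Cdkn1a did. Their median difference was 3.44 at 2 days and 0.01 at 7 days against sham, and -3.43 from 2 to 7 days. At an unadjusted p under 0.05, 4 of 4 were higher at 2 days, with edgeR adjusted p from 0.055 to 0.083, and 4 of 4 lower from 2 to 7 days, where Hba-a1 passed (29.3 to 2.46 CPM, edgeR, adjusted p = 0.048). The summed red cell markers (these 4 and the untested Alas2) were 4.10 to 26 CPM in sham, 25.0 to 385 at 2 days and 2.01 to 32.5 at 7 days. CVST 2 d samples 2 and 3 had the highest of these sums, 385 and 158 CPM, and the lowest Cdkn1a of their group, 36.3 and 34.3 CPM. The 3 neutrophil markers tested (S100a8, S100a9 and Mmp9) had median differences of 1.71, 0.13 and -2.24 in the 3 comparisons. All 5 neutrophil markers, with the untested Retnlg and Ly6g, summed to 1.03 to 3.29, 2.48 to 9.98 and 1.33 to 4.61 CPM in the 3 groups. The part of these cells in the Cdkn1a level was not tested, and in bulk tissue a change in the number of cells of a type and a change in RNA per cell cannot be told apart.

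**Figure D2:**
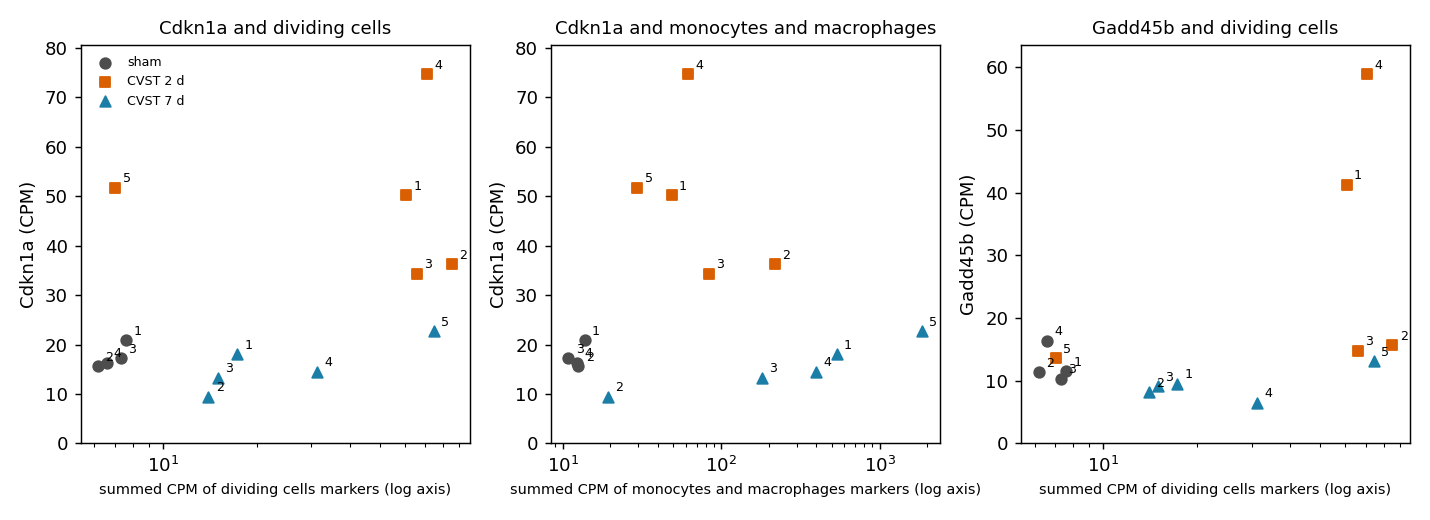
Cdkn1a and Gadd45b levels (CPM) against the summed CPM of dividing cell or macrophage markers on a log axis; each point is a sample, numbered within its group of 4 sham, 5 CVST 2 d and 5 CVST 7 d samples. CVST 2 d sample 5 has 51.7 CPM of Cdkn1a at a dividing cell sum of 7.01, and CVST 7 d sample 5 has 22.7 CPM at a macrophage sum of 1860.

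Of the 10 genes, 1 passed the edgeR test as higher at 2 days than in sham (Cdkn1a) and none as lower. Over all genes tested 2.98% passed as higher and 0.969% as lower. All 10 fitted differences were above 0 at 2 days, with a median of 0.22 against -0.01 over all genes, and 3 (Cdkn1a, Gadd45b and Gadd45g) had an unadjusted p under 0.05 in the higher direction, beside 12.3% of all genes (9.38% in the lower direction). In Cdkn1a and Gadd45g the 2 d and sham values did not overlap, with the 2 d values higher, which was so for 5.65% of all genes, and 3.06% had all 2 d values lower.

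At 7 days against sham, 0 of the 10 genes passed the edgeR test, beside 3.61% of all genes that passed as higher and 0.833% as lower. DESeq2 and limma called 0 of them as well. At an unadjusted p under 0.05 Ccng1 was higher (11.7% of all genes were) and Aen lower (7.91% of all genes were). Only in Aen did the 7 d and sham values not overlap, with the 7 d values lower, as in 3.87% of all genes (5.8% in the higher direction). The median difference was -0.07, against -0.01 over all genes.

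Between 7 and 2 days 3 of the 10 genes (Cdkn1a, Aen and Gadd45b) fell and none rose, beside 1.25% of all genes that fell and 1.54% that rose. In CPM the same 3 did not overlap between these groups, which held for 2.13% of all genes in the lower and 2.28% in the higher direction. In the deposited FPKM 1 of the 10, Cdkn1a, did not overlap. At an unadjusted p under 0.05, 5 of the 10 were lower at 7 days, the called 3 with Gadd45g and Phlda3, beside 10.6% of all genes (10.3% in the higher direction). The median difference was -0.42, against 0.01 over all genes. The comparisons share samples, so they are not independent of each other.

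**Figure D3:**
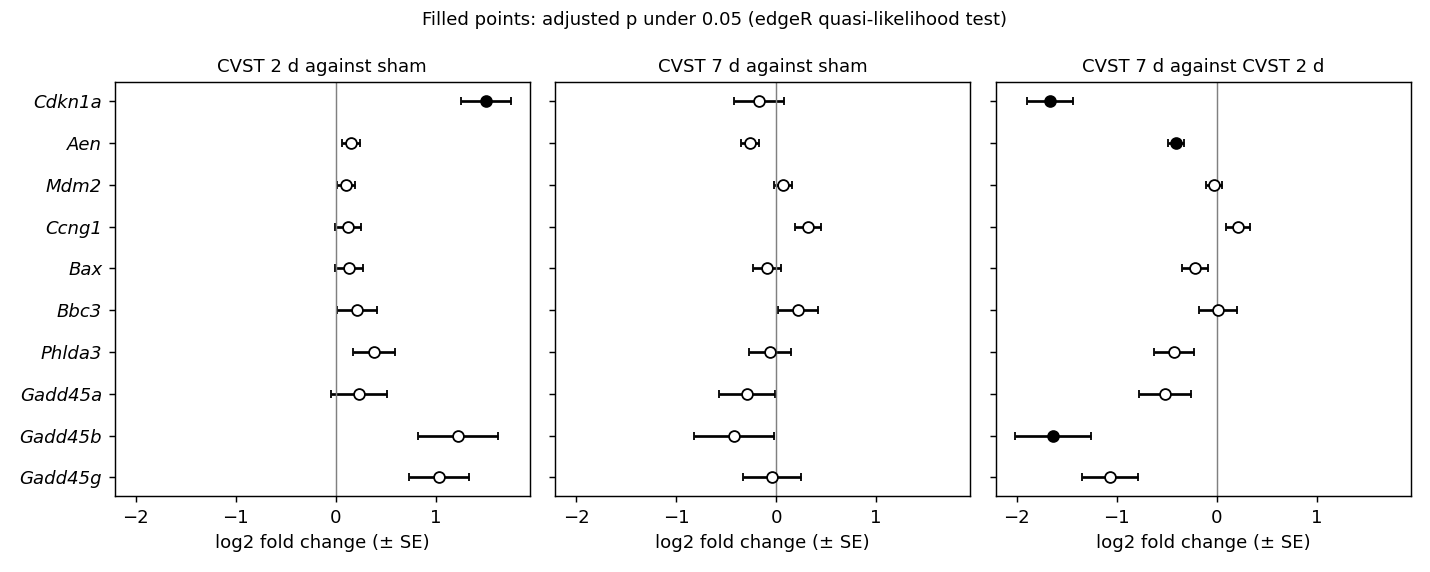
Log2 fold change of each gene (points) with its SE (whiskers) from the edgeR fit of all 14 samples, in 3 panels for 2 days against sham, 7 days against sham and 7 against 2 days; filled points have an adjusted p under 0.05. Cdkn1a is filled in the first panel at 1.5, the middle panel has no filled point, and Cdkn1a, Aen and Gadd45b are filled in the last.

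Mdm2, the gene through which p53 limits itself, did not pass the test in any comparison. Its level was 32.8 to 36.2 CPM in sham, 31.7 to 39.4 at 2 days and 31.9 to 39.9 at 7 days, and the 3 ranges overlap. The difference at 2 days was 0.10 ± 0.09 on the log2 scale (edgeR, adjusted p = 0.537).

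Ccng1, which encodes cyclin G1, a p53 target that recruits a phosphatase to Mdm2, was at 97.8, 85.0, 85.3 and 69.9 CPM in sham, at 88.0, 110, 104, 79.3 and 76.2 at 2 days and at 115, 109, 104, 115 and 85.0 at 7 days. All 7 d samples but the last lie above all sham samples. The difference between 7 days and sham was 0.32 ± 0.13 (edgeR, adjusted p = 0.177), and the exact permutation p was 0.0556.

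Aen encodes an exonuclease that digests DNA during apoptosis. Its level was 25.2, 23.1, 23.4 and 25.7 CPM in sham, 30.5, 28.3, 26.4, 26.9 and 22.9 at 2 days and 21.2, 18.6, 19.9, 22.2 and 19.6 at 7 days. At 7 days every value lay below every sham and every 2 d value. Aen fell by 0.41 ± 0.08 on the log2 scale from 2 to 7 days (edgeR, adjusted p = 0.0205), a smaller change than that of Cdkn1a but with less spread between samples. The call was lost without CVST 2 d sample 1 (edgeR, adjusted p = 0.0566) or CVST 7 d sample 3 (0.0525). It was also lost with only the 2 groups compared, with either replicate block and with limma on FPKM. Over all settings of edgeR, limma and DESeq2 the adjusted p ran from 0.000605 to 0.0694. Against sham the difference was 0.15 ± 0.09 at 2 days (edgeR, adjusted p = 0.351) and -0.26 ± 0.09 at 7 days (edgeR, adjusted p = 0.117). The exact permutation p of the 7 d difference was 0.0159. In the deposited FPKM the 7 d values of Aen overlapped both the sham values and the 2 d values.

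Bax and Bbc3 encode members of the Bcl2 family that promote cell death, Bax by opening the outer mitochondrial membrane and Bbc3 (PUMA) by blocking the protective members. Bax ranged from 21.2 to 27.2 CPM in sham, from 21.6 to 34.9 at 2 days and from 20.4 to 29.8 at 7 days. Bbc3 ranged from 2.85 to 5.25, from 4.11 to 5.01 and from 3.07 to 5.58 CPM in the same order. Both overlapped in all 3 comparisons. At 2 days against sham Bax differed by 0.13 ± 0.14 and Bbc3 by 0.21 ± 0.20 on the log2 scale (edgeR, adjusted p = 0.626 and 0.586).

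Phlda3, a p53 target that competes with the kinase Akt for membrane lipids, was at 21.1, 15.1, 11.6 and 16.1 CPM in sham and at 22.6, 26.2, 19.1, 18.9 and 16.6 CPM at 2 days. At 7 days it was at 13.9, 10.5, 12.9, 18.3 and 21.0 CPM. The 3 groups overlap. The differences were 0.38 ± 0.21 at 2 days against sham (edgeR, adjusted p = 0.316) and -0.43 ± 0.20 from 2 to 7 days (edgeR, adjusted p = 0.225).

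Gadd45b spread 4.33-fold between the samples of the 2 d group, the widest spread of the 10 genes there. It was at 11.5, 11.4, 10.3 and 16.4 CPM in sham and at 41.3, 15.7, 14.8, 58.9 and 13.6 CPM at 2 days. CVST 2 d samples 1 and 4 lie far above all sham samples, and the other 3 lie inside the sham range. At 7 days it was at 9.55, 8.17, 9.11, 6.47 and 13.1 CPM, all below the 2 d values. In the deposited FPKM these groups overlapped, with 7 d values up to 13.7 and 2 d values from 13.4. The difference at 2 days against sham was 1.22 ± 0.40 on the log2 scale (edgeR, adjusted p = 0.101), with an exact permutation p of 0.111, and 0.78 without CVST 2 d sample 4. Without CVST 2 d sample 5 it was 1.40 and passed the edgeR test (adjusted p = 0.0312), in the only 1 of 9 such fits that did. Over all settings of edgeR, limma and DESeq2 the adjusted p ran from 0.0237 to 0.229.

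Gadd45b fell by 1.64 ± 0.38 on the log2 scale from 2 to 7 days (edgeR, adjusted p = 0.0368). The exact permutation p was 0.00794, the smallest that 5 against 5 samples allow. The edgeR call was lost without CVST 2 d sample 1 (adjusted p = 0.103) or 4 (0.074), and without CVST 7 d sample 1 (0.071), 2 (0.0641), 3 (0.072) or 4 (0.0956). The call was also lost with only the 2 groups compared, with either replicate block and with limma on FPKM. Over all settings of edgeR, limma and DESeq2 the adjusted p ran from 0.000517 to 0.106. The 2 samples with high Gadd45b also had the highest choroid plexus marker sums of the 2 d group, 452 and 498 CPM, against 6.70 to 80.7 in the other 3. Sham samples 2 and 4, with choroid plexus sums of 286 and 863 CPM, had 11.4 and 16.4 CPM of Gadd45b. The dividing cell sums of CVST 2 d samples 1 and 4, 60.8 and 70.9 CPM, lay beside those of CVST 2 d samples 2 and 3 (85.4 and 65.9), whose Gadd45b was 15.7 and 14.8 CPM. The part of these cells in the Gadd45b level was not tested.

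Gadd45g was at 6.0, 7.33, 8.41 and 8.57 CPM in sham and at 16.5, 20.5, 10, 21.6 and 8.86 CPM at 2 days. All 2 d values lie above all sham values, the lowest by a small margin. At 7 days it was at 3.97, 6.65, 6.70, 10.5 and 8.91 CPM. The difference at 2 days was 1.03 ± 0.30 on the log2 scale, which missed the threshold (edgeR, adjusted p = 0.0623), with an exact permutation p of 0.0397. It passed in 1 of 9 fits with 1 sample left out, that without CVST 2 d sample 5, at 1.19 (edgeR, adjusted p = 0.0163). DESeq2 called it on all samples (adjusted p = 0.00991), with a range of 0.00991 to 0.162 over all settings. From 2 to 7 days the difference was -1.07 ± 0.28 (edgeR, adjusted p = 0.0513). Without CVST 2 d sample 5 it was -1.22 (edgeR, adjusted p = 0.0154), the only 1 of 10 such fits to pass. Over all settings the adjusted p ran from 0.00451 to 0.123.

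Gadd45a, the member of the family that p53 is known to bind and raise, did not pass the test in any comparison. It was at 11.9, 6.84, 8.06 and 5.55 CPM in sham and at 11.3, 9.09, 9.62, 13.5 and 4.05 CPM at 2 days. CVST 2 d sample 5 was the lowest of all 14 samples and sample 4 the highest. At 7 days the 5 values ran from 5.83 to 8.02 CPM. The differences were 0.23 ± 0.28 at 2 days against sham (edgeR, adjusted p = 0.669) and -0.52 ± 0.26 from 2 to 7 days (edgeR, adjusted p = 0.278). The latter was -0.71 without CVST 2 d sample 5 (edgeR, adjusted p = 0.0465), the only 1 of 10 fits with 1 sample left out to pass. Over all settings the adjusted p ran from 0.0465 to 0.495.

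**Figure D4:**
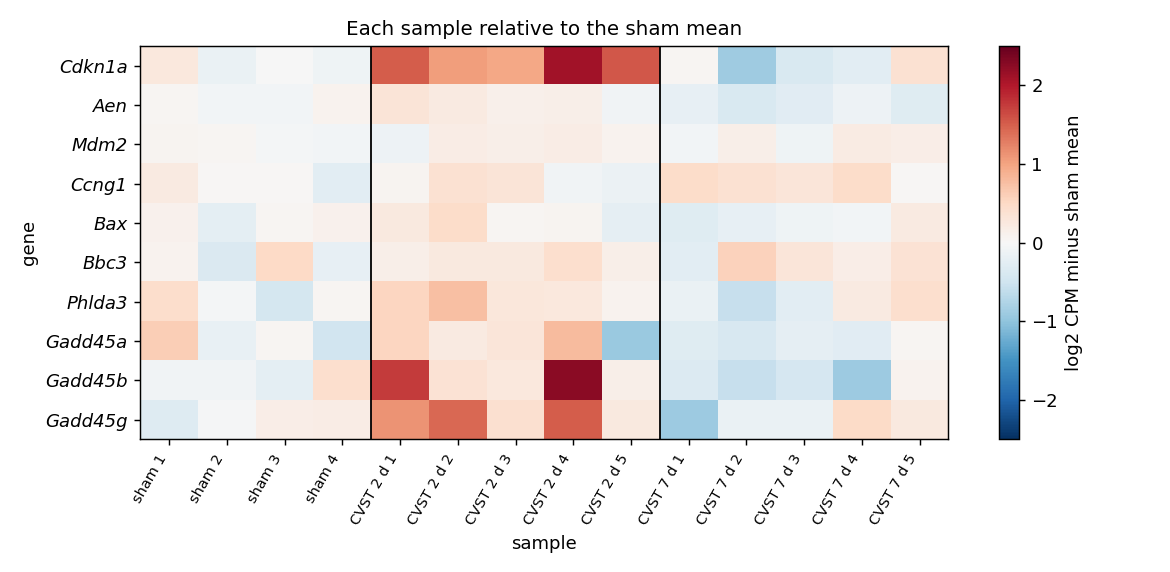
Heat map of log2 CPM minus the sham mean for each gene (rows) in each of the 14 samples (columns; sham, CVST 2 d and CVST 7 d separated by lines); red is above and blue below the sham mean. Cdkn1a is red in all 5 CVST 2 d samples, Gadd45b is deepest in CVST 2 d samples 1 and 4, and Gadd45a in CVST 2 d sample 5 is blue.

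The promoters were searched for the p53 decamer, because of the 7 p53 targets Cdkn1a alone was called at 2 days against sham. RefSeq start sites of assembly GRCm38.p6 gave 14 promoter windows for the 10 genes, each with 250 bases before the start searched on both strands. Of the 10 genes, 6 held at least 1 match to the decamer consensus (Cdkn1a, Aen, Mdm2, Ccng1, Bax and Gadd45a), as did 8.2% of 27025 genes. The 4 stretches with matches outside annotated exons are printed with 20 bases on each side, 5′ to 3′ on the strand of the gene, with the decamer in capitals, Cdkn1a being the called gene and Mdm2, Ccng1 and Bax 3 that were not.
Cdkn1a: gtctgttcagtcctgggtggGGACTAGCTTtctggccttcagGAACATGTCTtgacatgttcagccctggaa
Mdm2: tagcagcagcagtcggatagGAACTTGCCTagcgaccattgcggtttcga
Ccng1: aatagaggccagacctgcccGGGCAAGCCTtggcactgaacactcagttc
Bax: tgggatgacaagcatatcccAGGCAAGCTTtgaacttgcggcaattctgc
They lie at chr17:29090886-29090957 (+), chr10:117710915-117710964 (-), chr11:40755442-40755491 (-) and chr7:45467070-45467119 (-) of GRCm38, starting 93, 206, 205 and 221 bases before the start of the transcript. The stretch of Cdkn1a belongs to the more upstream of its annotated start sites. It holds 2 single matches, starting 73 and 51 bases before the start, with other bases between them. Adjoining pairs of decamers were not searched for, so the capitals do not mark a pair. A decamer that breaks the consensus at any base stays in lower case. The stretch of Bax lies inside the annotated gene Gm45808.

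The matches of Aen (GGGCTTGTCC) and Gadd45a (GGGCTAGCCC) fall in exons of the same genes. Of the 4 genes with a decamer printed above, only Cdkn1a passed the test at 2 days against sham. Of the 10 genes Bbc3 alone matched the NF-kB consensus, which 4.46% of all genes held. The cyclic AMP response element TGACGTCA, which 1.77% of all genes held, and the AP-1 element TGANTCA, which 7.82% held, were not found in the windows of the 10 genes, both strands read. A match is a description of the letters, and no match says nothing of sites outside these windows.

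Among the genes that control p53, Trp53, which encodes p53 itself, had a mean of 20.5 CPM in sham, 26 at 2 days and 23.1 at 7 days, with a difference of 0.34 ± 0.14 at 2 days (edgeR, adjusted p = 0.176). Of the 10 control genes (Trp53, Mdm4, Ppm1d, Atm, Atr, Chek1, Chek2, Usp7, Trp63 and Trp73), edgeR called 0 at 2 days against sham (beside 2.98% of all genes higher and 0.969% lower), 3 being higher and 1 lower at an unadjusted p under 0.05, and DESeq2 called 1. At 7 days 1 of the 10 was called, beside 3.61% of all genes called as higher. It was Chek2, a kinase of the DNA damage checkpoint, which rose from 0.960 to 2.33 CPM (log2 difference 1.27 ± 0.34, edgeR adjusted p = 0.048). This call held in 2 of 9 fits with 1 sample left out, where the adjusted p ran from 0.0133 to 0.152. At 2 days Chek2 was at 2.11 CPM, a difference of 1.13 ± 0.34 from sham that did not pass (edgeR, adjusted p = 0.0753). From 2 to 7 days it differed by 0.14 ± 0.30 (edgeR, adjusted p = 0.832).

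Among 27 other p53 targets, edgeR called 1 at 2 days, 1 at 7 days and 2 from 2 to 7 days, all higher. Over all genes 2.98%, 3.61% and 1.54% were called as higher in the same order. DESeq2 called 6 of the 27 at 2 days, when it called 1500 of all genes. At 2 days Sfn, which encodes the cell cycle inhibitor 14-3-3 sigma, rose from 0.951 to 3.0 CPM, by 1.65 ± 0.38 (edgeR, adjusted p = 0.0309), a call held in 2 of 9 fits with 1 sample left out (0.00492 to 0.104). At 7 days Trp53inp1, which promotes p53 phosphorylation and autophagy, rose from 14.6 CPM in sham to 25.1, by 0.78 ± 0.19 (edgeR, adjusted p = 0.0343, held in 3 of 9 such fits with up to 0.104). Its mean at 2 days was 13.3 CPM (edgeR, adjusted p = 0.733 against sham), and from 2 to 7 days it rose by 0.92 ± 0.18 (edgeR, adjusted p = 0.0179), a call lost only without CVST 2 d sample 1 (0.053). Polk, a DNA polymerase that copies past damage, rose by 0.52 ± 0.12 from 2 to 7 days (edgeR, adjusted p = 0.0368, held in 3 of 10 such fits with up to 0.106). The median of the 27 was 0.04 at 2 days and 0.15 at 7 days against sham, beside -0.01 over all genes.

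Cell cycle genes rose at 2 days beside Cdkn1a. Of 14 CDKs, cyclins and Pcna, 4 rose and 1 fell at 2 days against sham, beside 2.98% and 0.969% of all genes. Cdk1, the kinase of mitosis, went from 0.161 to 4.98 CPM (4.86 ± 1.01 on the log2 scale, edgeR adjusted p = 0.0209). Ccna2 and Ccnb2, cyclins of DNA replication and mitosis, rose by 2.00 ± 0.44 and 2.97 ± 0.77 (edgeR, adjusted p = 0.0268 and 0.0453). Pcna, the replication clamp to which p21 binds, rose by 0.53 ± 0.12 (edgeR, adjusted p = 0.0268). Ccnb1 went from 0.495 to 5.03 CPM without passing (edgeR, adjusted p = 0.055). Ccnd2, a D-type cyclin, fell by 0.45 ± 0.11 (edgeR, adjusted p = 0.0396). Each of these 5 calls was lost when any 1 of the 4 sham samples was left out, and all but that of Cdk1 also without some of the 2 d samples, with adjusted p up to 0.132.

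At 7 days Cdk1 (3.94 ± 1.01) remained above sham and Ccnd2 (-0.47 ± 0.11) below it (edgeR, adjusted p = 0.0405 and 0.0297, each held in 3 of 9 fits with 1 sample left out, with up to 0.115 and 0.095). Ccnd1, the cyclin of entry into the cycle, fell between 2 and 7 days from 89.8 to 43.4 CPM, by 1.05 ± 0.20 (edgeR, adjusted p = 0.0165), in all 10 such fits. Ccnd3 and Pcna fell by 0.49 ± 0.11 each (edgeR, adjusted p = 0.0369 and 0.031, held in 2 of 10 fits with up to 0.106 and 0.0842). The median of the 14 was 0.60, 0.15 and -0.36 in the 3 comparisons, beside -0.01, -0.01 and 0.01 over all genes. Of 6 other CDK inhibitors tested, Cdkn2b was the only called gene, at 7 days against sham (0.338 to 0.819 CPM, edgeR, adjusted p = 0.0492, held in 1 of 9 fits with up to 0.162), and DESeq2 called 0 in that comparison. Of all genes 3.61% were called as higher there. At 2 days Cdkn2b was at 0.694 CPM (edgeR, adjusted p = 0.104 against sham).

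In the Bcl2 family, to which Bax and Bbc3 belong, 12 genes other than these were tested. Bcl2, the founding survival gene, fell at 2 days from 21.4 to 15.7 CPM, by 0.44 ± 0.10 (edgeR, adjusted p = 0.0338, held in 3 of 9 fits with up to 0.13). Mcl1, another survival gene, went from 72.2 to 106 CPM without passing (edgeR, adjusted p = 0.0586). Bcl2a1b, a survival gene of blood cells with near-identical copies among which reads may be split, rose at 2 and 7 days (2.74 ± 0.63 and 3.39 ± 0.63, edgeR, adjusted p = 0.0309 and 0.0117, held in 2 and 6 of 9 fits with up to 0.108 and 0.0564). Bcl2l11, a promoter of cell death, rose at 7 days by 0.79 ± 0.20 (edgeR, adjusted p = 0.0431, held in 2 of 9 fits with up to 0.138).

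Of 8 partners of the Gadd45 proteins and DNA demethylation genes, edgeR called 0 at 2 and 0 at 7 days against sham, with 2 and 1 lower at an unadjusted p under 0.05, and DESeq2 called 0 as well. In these 2 comparisons edgeR called 2.98% and 3.61% of all genes as higher and 0.969% and 0.833% as lower. Tet1, which oxidises methylated cytosine, rose by 0.53 ± 0.13 from 2 to 7 days (edgeR, adjusted p = 0.0497, held in 2 of 10 fits with up to 0.131). Of 10 genes switched on by neuronal activity, 2 fell at 2 days against sham, Nr4a1 by 0.95 ± 0.17 (lost without sham sample 3, adjusted p = 0.0564) and Nr4a3 by 1.29 ± 0.27 (held in 3 of 9 fits with up to 0.0747; edgeR, adjusted p = 0.0137 and 0.0211). At 7 days 7 of the 10 had fallen below sham (Fos, Junb, Egr1, Egr2, Nr4a1, Nr4a3 and Arc), with log2 differences from -0.90 ± 0.22 for Junb to -2.16 ± 0.44 for Egr2. The edgeR call of Nr4a1 at 7 days (-1.46 ± 0.18, adjusted p = 0.00199) held in all 9 fits with 1 sample left out, and that of Arc (-1.62 ± 0.32) in 8, with 0.0503 without sham sample 3. The other 5 held in 1 to 7 of the 9 fits, with adjusted p up to 0.118.

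Between 2 and 7 days 6 of the 10 activity genes fell (Fos, Fosb, Junb, Arc, Npas4 and Ier2), beside 1.25% of all genes. Fos fell by 2.04 ± 0.38 (edgeR, adjusted p = 0.0162) in all 10 fits with 1 sample left out. The calls of Junb, Arc and Fosb held in 8, 7 and 6 of the 10 fits, with adjusted p up to 0.053, 0.0519 and 0.0903, and those of Npas4 and Ier2 in 2 each, with up to 0.122 and 0.0956. Gadd45b fell between the same groups, and its 7 d values ran from 6.47 to 13.1 CPM against 10.3 to 16.4 in sham, a difference of -0.42 ± 0.40 (edgeR, adjusted p = 0.608). For Fos the mean was 24.3 CPM in sham, 32.1 at 2 days and 7.78 at 7 days.

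The genes whose log2 CPM followed each of the 10 most closely over the 14 samples were listed from 15292 genes with a mean of at least 1 CPM, by Pearson's r. These r values include the differences between groups, so the r of deviations from the group means is given beside them. For Cdkn1a they were Gsr (r = 0.910, within groups 0.589), Slc35e4 (0.896, 0.587), Lrrc8a (0.891, 0.531), Gm33228 (0.890, 0.584) and Gpd1 (0.889, 0.390). For Gadd45g they were Myc (0.953, 0.913), Mybbp1a (0.947, 0.886) and Tfdp1 (0.932, 0.868). For Gadd45b they were Fndc9 (0.942, 0.893), Slc5a3 (0.934, 0.856) and Itpkc (0.932, 0.863). For Gadd45a they were Ptp4a1 (0.921, 0.907), C530025M09Rik (0.920, 0.913) and Lrrc38 (0.888, 0.909).

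The genes most like Bax were Rpl41 (0.936, within groups 0.925), Rpl35 (0.924, 0.917) and Rpl18 (0.921, 0.942), all of which encode ribosomal proteins. Aen followed Dnajb11 (0.926, 0.800), Atf4 (0.920, 0.793) and Ciao2b (0.919, 0.862). Ccng1 followed Chrdl1 (0.926, 0.888), and Phlda3 followed Dbndd2 (0.914, 0.891). Mdm2 followed Mfn1 (0.856, 0.911), and Bbc3 followed Gm47547 (0.866, 0.842).

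**Figure D5:**
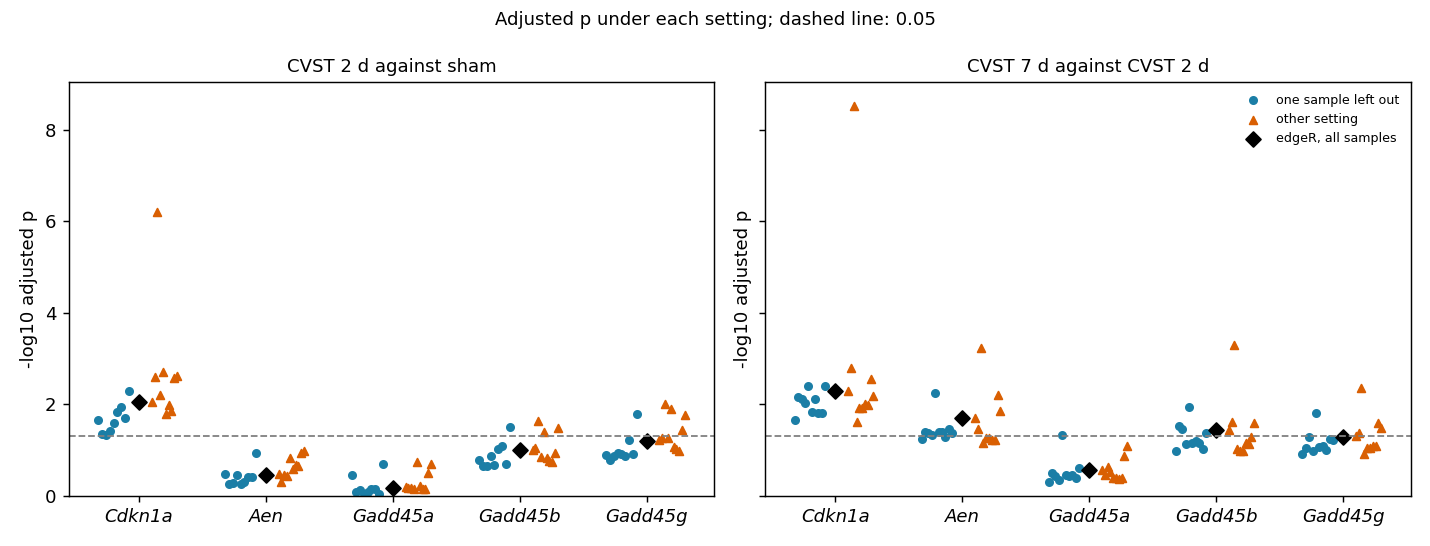
Adjusted p, as -log10, of 5 genes at 2 days against sham and at 7 against 2 days, from edgeR on all samples (diamonds), with 1 sample left out (circles) and under other settings (triangles); the dashed line marks 0.05. All Cdkn1a points lie above the line, and those of Gadd45b and Gadd45g lie on both sides of it.

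Reads of overlapping genes could not always be told apart, since it is not stated whether the counting used strand. In the GENCODE vM21 annotation an exon of Gadd45a overlaps E230016M11Rik on the opposite strand, which had 22 to 55 counts per sample. An exon of Bax overlaps Gm45808 on the same strand, with 0 to 1 counts. Cdkn1a overlaps AC167363.2 on the opposite strand, for which no row was matched by symbol.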

How the data were processed

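Per the labels' protocols, RNA was extracted with Trizol and libraries were made with a NEBNext Ultra kit. Per the submitters' processing notes, reads passed through fastp and HISAT2 against build mm39, and DESeq2 1.16.1 was used. Neither the counting tool nor its annotation is stated there. The authors deposited gene counts, not normalized, and FPKM values, used here for levels between genes.

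The 535 entries without an Ensembl gene (0.203 to 0.278% of counts) were left out. Counts of all 14 samples were fitted together with edgeR 4.0.16 in R 4.3.3 (TMM, filterByExpr, quasi-likelihood F test, 2-sided, no covariate), with Benjamini-Hochberg adjustment over 16918 genes. Genes with an adjusted p under 0.05 are termed called. CPM are TMM-scaled, and log2 CPM for permutation tests and r used a prior count of 2. The biological coefficient of variation was 0.218. Replicates differed beyond counting noise (lowest chi-square per degree of freedom 8.27). Alternatives used DESeq2 1.42.0 and limma 3.58.1, including limma on log2(FPKM + 0.1) and log2(FPKM + 1), other scaling, no filter, only the compared groups, a replicate block and leaving out samples. The deviations of same-numbered samples correlated from -0.438 to 0.280. The labels give the numbers no meaning, so they were not used as pairs in the main fit.

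The 10 genes and all gene lists were chosen with earlier results of these data known. Named genes were the 10 genes, called genes of the lists, Trp53, Pcna, Cdk1, Ccnb1, Bcl2 and Mcl1, and the genes of closest pattern. Promoter sequences are RefSeq's on GRCm38.p6, which differs from the build of the counts, so no coordinates were joined.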

Additional observations from a re-analysis of the deposited data

Results flagged for a closer look

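No sample of the 10 genes stood apart from the rest of its group by Dixon's test in any of 30 sets of values (10 genes in 3 groups). The test takes 1 end value at a time, so it can miss 2 samples that are high together. Gadd45b at 2 days had such values, 41.3 and 58.9 CPM against 13.6 to 15.7 in the other samples. Among the 10 genes and the lists other than cell type markers, 15 genes differed between 2 and 7 days after CVST (edgeR, all adjusted p under 0.05). Of the 10 genes these were Cdkn1a (-1.67 on the log2 scale, 7 minus 2 days), Aen (-0.41) and Gadd45b (-1.64). Among p53 targets and Gadd45 partners, Trp53inp1 (0.92), Polk (0.52) and Tet1 (0.53) were higher at 7 days. Among cell cycle genes Ccnd1 (-1.05), Ccnd3 (-0.49) and Pcna (-0.49) were lower. Among activity genes Fos (-2.04), Fosb (-1.92), Junb (-1.03), Arc (-1.48), Npas4 (-1.43) and Ier2 (-1.14) were lower. These are direct differences between the 7 d and 2 d samples, and the 4 sham samples enter them only through the shared estimate of the spread.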

How the results depend on the processing

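Cdkn1a kept its direction and its call at 2 days against sham and from 2 to 7 days in every setting run. Of the 10 genes, 1 was called at 2 days against sham, 3 with DESeq2, 3 with a replicate block, 1 with the block on all 14 samples, 2 with voom and sample weights and 3 without CVST 2 d sample 5 and CVST 7 d sample 2, a setting chosen after seeing the data, and 1 to 3 with 1 sample left out. What the sample numbers mean is not stated, and no more than 1 sample per comparison correlated best with its own number. So few samples cannot show whether same-numbered samples share anything else. At 7 days against sham 0 were called in every setting. From 2 to 7 days 3 were called, and 1 with only the 2 groups compared, 1 with a replicate block, 1 with the block on all 14 samples, 1 and 1 with limma on log2(FPKM + 0.1) and log2(FPKM + 1), 4 each with DESeq2, voom, no filter and without the 2 samples, and 1 to 5 with 1 sample left out. Fewer samples enter some of these fits. The replicate block against sham left out the samples numbered 5, a number that sham does not have. Leaving out CVST 2 d sample 5 alone, without a block, also gave 3 called at 2 days against sham. The cause was otherwise not tested.

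The number of all genes called moved more. At 2 days it was 669, and 1500 with DESeq2, 1954 with a replicate block, 315 with the block on all 14 samples, 415 and 246 with limma on FPKM, 2616 with voom, 2146 without the 2 samples, and 76 to 1967 with 1 sample left out. At 7 days it was 752, and 1387, 192, 81, 413 and 265 in that order, 1324 without the 2 samples and 119 to 1035 with 1 left out. From 2 to 7 days it was 473, and 1278, 91, 91, 239 and 240, 81 with only the 2 groups, 1237 with voom, 913 without the 2 samples and 173 to 1309 with 1 left out.

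Of the 10 genes, those whose groups did not overlap numbered 2 at 2 days (2 to 3 with 1 sample left out). They numbered 1 at 7 days (0 in FPKM, 1 to 3 with 1 sample left out) and 3 from 2 to 7 days (1 in FPKM). Over all genes 5.65% had all values higher and 3.06% lower at 2 days, and 5.8% and 3.87% at 7 days against sham. From 2 to 7 days these shares were 2.28% and 2.13%. Small uncalled differences changed sign. At 7 days against sham Phlda3 became 0.07 and Gadd45g 0.01 without the 2 samples, and with 1 sample left out they ran from -0.20 to 0.11 and from -0.20 to 0.12. From 2 to 7 days Mdm2 ran from -0.08 to 0.02 and Bbc3 from -0.08 to 0.12, with -0.01 for Bbc3 in voom, -0.10 without the 2 samples and -0.01 in the exact permutation. Of the lists other than cell type markers, only genes that edgeR called on all samples were followed through the settings, so no gain of a call could show. Of their values, 388 kept the call and 308 lost it. Calls of cell type markers other than Cdk1 were not followed. At these depths Bbc3 (2.85 to 5.58 CPM) had the lowest counts of the 10 genes.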
